A study of Mus musculus with 2 samples.

Results

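Foxp3-positive T cells were examined among pancreas-infiltrating immune cells of female NOD/ShiLtJ mice. In this strain T cells destroy the insulin-producing beta cells of the islets and diabetes develops spontaneously. Cells that carry CD45.1, the form of the leukocyte surface marker in this strain, were taken by flow sorting from pancreases of mice aged 12 weeks and of mice aged 7 weeks. Each age had 1 library, made with the 10x Genomics Chromium 3' chemistry, and the sources used here do not say how many mice went into each. The labels name no treatment. The sort took whole pancreas, so cells of the islets, of the exocrine tissue, of blood and of any lymphoid tissue that came with the organ cannot be told apart.

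A barcode was a member when it held at least 1 unique molecular identifier (UMI) of Foxp3 and at least 1 of Cd3d, Cd3e or Cd3g, no UMI of Cd8a or Cd8b1, at most 1 of Cd79a and at most 1 of Lyz2. It also had to hold fewer than 4 UMIs in all of 7 cell cycle genes. Barcodes with under 200 genes or over 10% mitochondrial UMIs had been set aside. The rule gave 76 cells of 2804 at 12 weeks and 56 of 1109 at 7 weeks, 132 of 3913 in all. They were set against 703 and 284 T cells that met the same limits with at least 1 Cd4 UMI and no Foxp3 UMI, below called Foxp3-negative cells. The members were thus chosen by their measured Foxp3, Cd3, Cd8, Cd79a, Lyz2 and cycle gene UMIs, so these genes are described and not tested, and neither is Cd4, which chose the cells for comparison.

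Regulatory T cells hold other immune cells in check. The transcription factor FOXP3 sets their programme, they take up interleukin 2 through a high affinity receptor that includes CD25 (Il2ra), and they act in part through CTLA-4, which removes the costimulatory ligands CD80 and CD86 from antigen-presenting cells, and through interleukin 10. In the NOD strain regulatory T cells in the pancreas are known to delay diabetes, and their loss is known to speed it.

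The libraries held 19288252 UMIs over 2812 deposited barcodes at 12 weeks and 8701184 over 1113 at 7 weeks. Members had a median of 5263 UMIs per cell at 12 weeks (range 3055 to 18197) and 5723 at 7 weeks (2665 to 18794), against 4502 and 5530 in Foxp3-negative cells. Their UMIs summed to 464083 and 385575. The libraries shared 2 barcode sequences, and neither shared barcode belonged to a member. With 1 library per age, age and library cannot be told apart, intervals cover counting error only, and no test between the ages is given.

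Foxp3 itself (ENSMUSG00000039521, chrX:7573644-7595245, plus strand, GRCm38) was thinly sampled. At 12 weeks 38 members held 1 Foxp3 UMI and 38 held more, with a highest value of 7. At 7 weeks 25 members held 1 and 31 held more, with a highest value of 5. Of all kept barcodes 113 at 12 weeks and 89 at 7 weeks held a Foxp3 UMI. The limits left out 37 and 33 of them: 23 and 20 held a Cd8a or Cd8b1 UMI and 17 and 15 held 4 or more cycle gene UMIs, 9 and 4 held at least 2 Cd79a UMIs, 3 and 5 at least 2 Lyz2 UMIs, and 3 and 1 had no CD3 UMI. A barcode could fail several limits.

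The label was checked against Ikzf2, Ctla4 and Il2ra. Ikzf2 encodes Helios, a zinc finger factor carried by most thymus-derived regulatory T cells. At least 1 Ikzf2 UMI was found in 92.1% of members at 12 weeks and 94.6% at 7 weeks, against 31.3% and 47.5% of Foxp3-negative cells and 1.02% and 1.74% of B cells, which should lack it. Ctla4 was found in 73.7% and 73.2% of members, against 28.2% and 34.9% of Foxp3-negative cells and 1.42% and 4.35% of B cells. Il2ra was found in 26.3% and 41.1% of members, against 3.41% and 3.87% of Foxp3-negative cells and 1.02% and 0.870% of B cells. All 3 markers exceeded the B cell level in members of both libraries. Of 76 members at 12 weeks 18 held all 3 markers, 38 held 2, 16 held 1 and 4 held none, and of 56 at 7 weeks 15 held all 3, 33 held 2, 6 held 1 and 2 held none. Among Foxp3-negative cells 109 of 703 at 12 weeks and 62 of 284 at 7 weeks held 2 of these markers, and 9 and 5 held all 3. Cells whose Foxp3 mRNA was not captured cannot be told apart from Foxp3-negative cells.

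Members just inside the Foxp3 limit had higher summed levels of Ikzf2 and Il2ra than the cells just outside it. The summed Ikzf2 level, in CPM (UMIs per 1000000 UMIs of the cells summed), was 1203 in the members with 1 Foxp3 UMI and 1264 in those with more at 12 weeks, and 1323 and 1039 at 7 weeks. Just outside, Cd4-positive cells with no Foxp3 UMI had 197 and 216 CPM. Il2ra gave 84.7 and 108 CPM at 12 weeks and 65.1 and 142 at 7 weeks inside the limit, against 11.3 and 10.5 outside it. Ikzf2 with 1 Foxp3 UMI was close to its level with more, while Il2ra at 7 weeks lay between its level with more and the level outside the limit.

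Members made up 2.71% of kept barcodes at 12 weeks (2.14 to 3.38, 95% exact Clopper-Pearson limits) and 5.05% at 7 weeks (3.84 to 6.51). The ratio of 12 weeks to 7 weeks was 0.537 (exact conditional interval 0.375 to 0.772). Among T cells without Cd8a or Cd8b1 UMIs, members were 6.85% of 1110 at 12 weeks and 10.2% of 549 at 7 weeks, a ratio of 0.671 (0.469 to 0.966). Median depth was lower at 12 weeks, and each cell was therefore also thinned to 2000 UMIs, which no cell fell short of. The ratio of the shares was then 0.505 (0.320 to 0.805) among kept barcodes and 0.631 (0.399 to 1.005) among the T cells. The smaller share at 12 weeks lay outside counting error over all barcodes, and near its edge among T cells. The spread between mice is not known.

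Foxp3-positive cells differed from Foxp3-negative cells in both libraries. Core regulatory T cell genes, receptors of the tumour necrosis factor (TNF) family and several genes of activated, tissue-dwelling cells were higher. Genes of helper function, such as Cd40lg and Ifng, and of resting cells in circulation, such as Dapl1, Igfbp4, Lef1 and Tcf7, were lower. Of these, Cd40lg, Ifng, Dapl1 and Igfbp4 averaged under 30 CPM in Foxp3-positive cells and entered the test below through the Foxp3-negative cells alone. The tests of these 4 genes therefore describe and do not support. Raw UMIs were summed per library and cell set, and the 4 sums were compared with edgeR's quasi-likelihood test with the library as a block, over genes with a mean of at least 30 CPM across the sums. Of 3804 genes 139 were higher (3.65%) and 174 lower (4.57%), 313 in all (8.23%), at a Benjamini-Hochberg adjusted p under 0.05. Scaled by library totals without factors, the same test called 232 higher and 122 lower, so that 65.5% of calls were higher in place of 44.4%, and the median log2 fold change over all genes was 0.11. DESeq2 called 68 and 98. The fit has 1 residual degree of freedom, and as the libraries are of different ages that residual also holds any change of the difference with age.

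Of the 23 genes of the core regulatory T cell list, Foxp3 belongs to the rule, 17 were tested, 14 were higher (background 3.65%), none was lower, and the median log2 fold change was 1.84 against -0.00402 over all genes tested. A gene that is high in only one set of cells can pass the CPM limit through that set alone. Of these 17 genes 5 did: Il2ra, Ikzf4, Itgb8, Ecm1 and Swap70. The list counts and medians here and below, and the tests of such genes, describe and do not support. Ikzf2 stood at 1235 CPM at 12 weeks and 1141 at 7 weeks in Foxp3-positive cells, against 197 and 216 in Foxp3-negative cells. Its log2 fold change was 2.42 (SE 0.10, edgeR adjusted p = 0.000118). Il2ra, the CD25 chain of the interleukin 2 receptor, stood at 96.97 and 114 CPM, against 11.3 and 10.5, a log2 fold change of 3.12. In both libraries the sums of Foxp3-positive cells lay above those of Foxp3-negative cells for both genes, while single cells overlapped. An Ikzf2 UMI was held by 92.1% and 94.6% of Foxp3-positive cells, against 31.3% and 47.5% of Foxp3-negative cells, and an Il2ra UMI by 26.3% and 41.1%, against 3.41% and 3.87%. Ctla4, the coinhibitory receptor, had 448 and 765 CPM in Foxp3-positive cells, against 135 and 118 in Foxp3-negative cells (log2 fold change 2.09, SE 0.22, edgeR adjusted p = 0.00198). Ikzf4, which encodes Eos, a Helios relative and FOXP3 partner, had 90.5 and 88.2 CPM, against 9.97 and 7.87 (log2 fold change 3.18).

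The other core genes that rose were Ecm1, Swap70, Capg, Itgb8, Izumo1r, Il2rb and Icos beside the TNF receptor genes below. Itgb8, an integrin chain that with its partner frees active TGF-beta, had 53.9 and 59.7 CPM in Foxp3-positive cells, against 15.4 and 13.6 in Foxp3-negative cells. Izumo1r, which encodes folate receptor 4, had 1144 and 1011 CPM, against 437 and 425. Il2rb, the signalling chain of the interleukin 2 receptor, had 220 and 236 CPM, against 90.0 and 118 (log2 fold change 1.04). Nrp1, Nt5e and Socs2 did not pass: Nrp1, which encodes neuropilin 1, had 129 and 93.4 CPM in Foxp3-positive cells, against 58.2 and 89.7, with a log2 fold change of 0.55 (edgeR adjusted p = 0.312). Gpr83, Lrrc32, Entpd1, Tigit and Ebi3 fell under the CPM limit. Lrrc32, which encodes GARP, the surface anchor of latent TGF-beta, had 5 and 12 UMIs in Foxp3-positive cells, against 2 and 0 in Foxp3-negative cells. Gpr83 had 13 and 18 UMIs, against 39 and 3, so that the CPM ratio was 2.67 at 12 weeks (1.31 to 5.10, exact conditional limits) and 29.7 at 7 weeks (8.66 to 157).

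**Figure D1:**
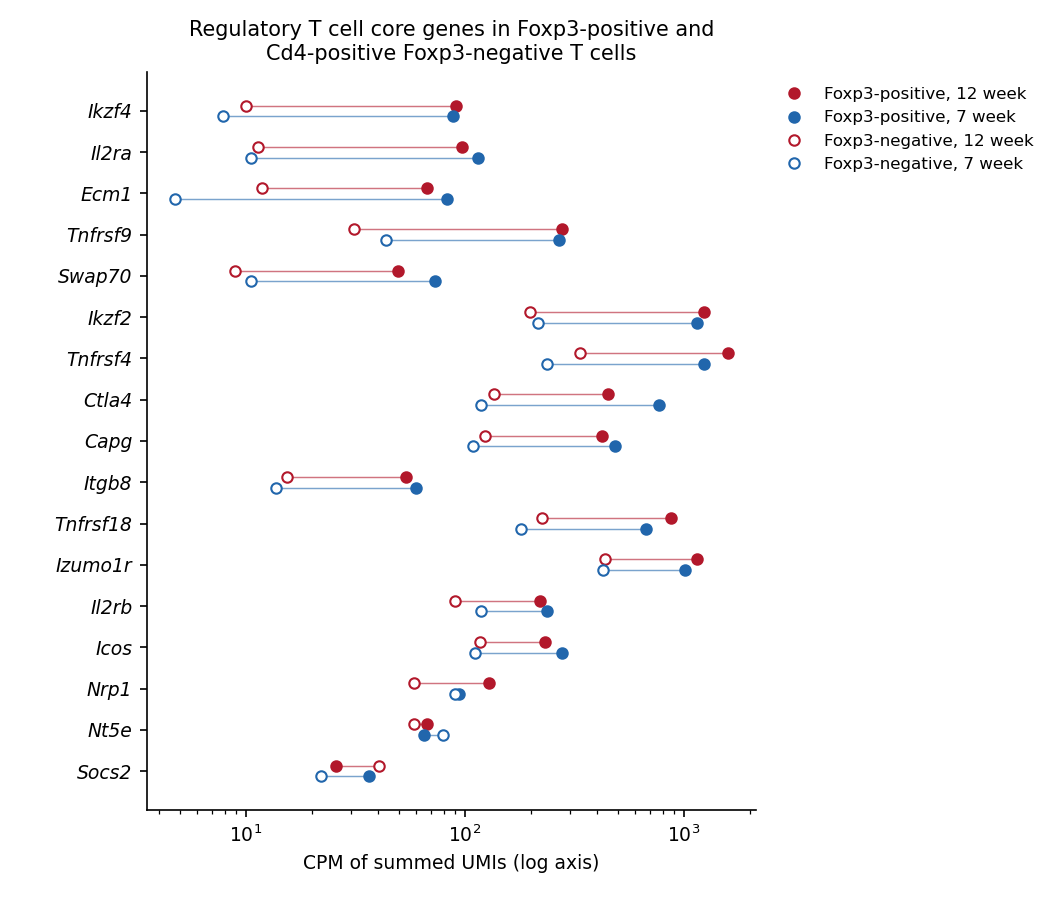
Level of the 17 tested core regulatory T cell genes, in CPM on a log axis, in Foxp3-positive (filled) and Cd4-positive Foxp3-negative cells (open) of the 12 week (red) and 7 week (blue) library, 1 point per sum of cells. Filled points lie right of open ones in both libraries for 15 genes, and Nt5e and Socs2 lie on different sides in the 2 libraries.

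Foxp3, whose start differs between 2 RefSeq entries, chose the members. Ctla4, Il2ra and Tnfrsf18, which encodes the TNF family receptor GITR, were higher in them. For these genes the stretches from 250 bases before to 50 after the annotated start are shown. They were read from RefSeq on GRCm38.p6, plus strand for each, 5' to 3'. Letters in capitals mark TTCNNNGAA, the STAT motif, since interleukin 2 signals through STAT5.
Foxp3, first start, chrX:7579426-7579725: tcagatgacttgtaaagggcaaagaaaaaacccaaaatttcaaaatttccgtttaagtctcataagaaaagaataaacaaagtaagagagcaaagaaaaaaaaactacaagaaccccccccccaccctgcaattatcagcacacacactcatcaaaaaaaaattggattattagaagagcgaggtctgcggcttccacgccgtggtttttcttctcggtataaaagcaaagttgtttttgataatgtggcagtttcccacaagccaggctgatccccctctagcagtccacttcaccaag
Foxp3, second start, chrX:7580233-7580532: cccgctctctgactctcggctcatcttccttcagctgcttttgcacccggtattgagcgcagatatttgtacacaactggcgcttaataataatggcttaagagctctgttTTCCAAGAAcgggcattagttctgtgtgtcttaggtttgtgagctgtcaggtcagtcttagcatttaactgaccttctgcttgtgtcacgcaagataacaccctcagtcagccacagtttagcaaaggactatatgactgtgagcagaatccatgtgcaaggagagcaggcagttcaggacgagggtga
Ctla4, chr1:60908775-60909074: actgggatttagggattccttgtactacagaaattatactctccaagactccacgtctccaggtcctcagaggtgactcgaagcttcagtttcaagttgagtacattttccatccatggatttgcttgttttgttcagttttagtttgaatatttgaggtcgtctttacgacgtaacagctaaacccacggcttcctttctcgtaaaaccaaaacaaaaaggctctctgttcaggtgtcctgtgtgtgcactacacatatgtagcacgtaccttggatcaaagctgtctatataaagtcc
Il2ra, chr2:11642542-11642841: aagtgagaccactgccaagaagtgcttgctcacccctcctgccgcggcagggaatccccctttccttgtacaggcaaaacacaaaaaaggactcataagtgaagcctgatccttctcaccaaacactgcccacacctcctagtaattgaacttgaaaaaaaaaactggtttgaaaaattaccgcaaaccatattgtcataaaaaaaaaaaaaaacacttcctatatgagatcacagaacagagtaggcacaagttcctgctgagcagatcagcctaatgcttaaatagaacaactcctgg
Tnfrsf18, chr4:156026072-156026371: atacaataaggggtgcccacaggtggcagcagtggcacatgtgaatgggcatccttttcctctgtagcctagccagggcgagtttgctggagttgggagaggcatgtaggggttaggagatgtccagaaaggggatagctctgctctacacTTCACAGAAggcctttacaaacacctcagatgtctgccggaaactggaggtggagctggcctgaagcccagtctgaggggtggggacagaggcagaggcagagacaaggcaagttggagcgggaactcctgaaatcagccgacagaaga
Letter patterns searched on both strands were TTCNNNGAA, the forkhead pattern GTAAACA and the RUNX pattern TGTGGT. Of the promoters shown, the second Foxp3 stretch and that of Tnfrsf18 each held 1 STAT pattern, and the stretches of Ctla4 and Il2ra held none of the 3. The STAT pattern was in 20 of 149 promoters of genes higher in Foxp3-positive cells (13.4%), in 13 of 174 promoters of genes lower there (7.47%), in 6.90% of promoters of all genes tested and in 8.30% of 32851 promoters in the table. The RUNX pattern was in 20.1% of promoters of the higher genes and 13.3% of those of all genes tested, and the forkhead pattern in 3.36% and 2.44%. Of the 139 higher genes 112 had a promoter in the table. These shares are descriptions of the letters.

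Receptors of the TNF family, which carry costimulatory signals into T cells, were higher as well. Of 10 listed genes 7 were tested, and 5 were higher (background 3.65%): Tnfrsf9 (4-1BB), Tnfrsf4 (OX40), Tnfrsf18 (GITR), Tnfrsf1b (TNF receptor 2) and Cd27. The median log2 fold change was 1.82. Tnfrsf4 had 1592 and 1237 CPM in Foxp3-positive cells, against 336 and 236 in Foxp3-negative cells (log2 fold change 2.20, SE 0.09, edgeR adjusted p = 0.000118). Tnfrsf9 had 278 and 270 CPM, against 31.0 and 43.5. Tnfrsf1b had 207 and 290 CPM, against 54.4 and 47.7. The adapters Traf1 and Traf2 did not pass, with log2 fold changes of 0.28 and 0.12.

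By rank, the 12 higher genes with the largest log2 CPM ratio in the library where that ratio was smaller were Il1r2, Itgae, Ikzf4, Il2ra, Tnfrsf9, Ecm1, Swap70, Ikzf2, Neb, Hopx, Tnfrsf4 and Arl5a. Il1r2, Itgae, Ikzf4, Il2ra, Ecm1, Swap70 and Hopx were among those that averaged under 30 CPM in Foxp3-negative cells. They passed the limit through the Foxp3-positive cells alone, so their ranks and tests describe and do not support. Il1r2, the decoy receptor that binds interleukin 1 without signalling, had 200 and 83.0 CPM in Foxp3-positive cells, against 8.62 and 4.197 in Foxp3-negative cells. Its log2 fold change was 4.35. Its UMIs lay in 21 and 12 members. Itgae, the CD103 chain of the integrin that binds E-cadherin on epithelium, had 114 and 207 CPM, against 7.54 and 14.7 (log2 fold change 3.75). Without the cell holding most of the gene's UMIs in each sum, a check chosen after seeing the data, the CPM ratio was 26.0 and 22.7 for Il1r2 and 18.9 and 11.6 for Itgae. Hopx, a homeodomain-only protein that peripheral regulatory T cells are known to need, had 94.8 and 93.4 CPM, against 18.9 and 18.4. Neb and Arl5a had log2 fold changes of 2.63 and 2.54.

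Genes of effector regulatory T cells were mixed. Of 33 listed genes 26 were tested, 12 were higher (background 3.65%), 2 were lower (background 4.57%), and the median log2 fold change was 0.65. Beside Itgae and the receptors above, Ccr2, Rora, Batf, S100a6, S100a4, Glrx, Lgals1 and Il10 rose. Il10 had 99.1 and 415 CPM in Foxp3-positive cells, against 42.3 and 39.3 in Foxp3-negative cells (log2 fold change 2.30, SE 0.44, edgeR adjusted p = 0.0243), and missed the threshold with DESeq2 (adjusted p = 0.254). Batf, an AP-1 family factor that tissue regulatory T cells depend on, had 420 and 278 CPM, against 166 and 156. Itgb1 and Id2 fell: Itgb1, the integrin beta 1 chain, had 177 and 112 CPM, against 307 and 398. Of the 10 genes listed for tissue repair 4 could be tested, and Rora and Batf rose. Il1rl1, the interleukin 33 receptor, had 9 and 12 UMIs in Foxp3-positive cells, against 2 and 7 in the far larger sums of Foxp3-negative cells. Areg, the growth factor amphiregulin, had 15 and 20 UMIs, against 13 and 13, which is a CPM ratio of 9.23 (4.10 to 21.1) at 12 weeks and 7.61 (3.60 to 16.6) at 7 weeks. Ccr8 had 13 and 11 UMIs, against 7 and 10.

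Of 14 genes of suppression 9 were tested and 5 were higher, Il10, Ctla4, Itgb8, Fgl2 and Lgals1, with a median log2 fold change of 1.79. The background for this count and the next ones is 3.65%. Fgl2, a secreted protein with suppressive action, had 56.0 and 85.6 CPM in Foxp3-positive cells, against 18.6 and 17.8 in Foxp3-negative cells. Gzmb, which encodes granzyme B, did not pass: it had 40.9 and 75.2 CPM, against 17.0 and 2.10 (log2 fold change 2.36, edgeR adjusted p = 0.112). Among the 11 genes of interleukin 2 signalling, all tested, the receptor chains Il2ra and Il2rb rose and the rest did not pass, with a median log2 fold change of 0.03. Of 12 T cell receptor response genes 9 were tested, and Nr4a3, Nr4a1 and Cd5 rose. Nr4a1, an orphan nuclear receptor induced by antigen receptor signals, had 123 and 296 CPM, against 55.0 and 135. Of 12 class I antigen presentation genes 11 were tested and B2m, H2-D1 and Tap1 rose. Of 13 interferon response genes 9 were tested, and Gbp7 and Igtp rose.

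Of 12 genes of conventional helper cells 7 were tested, and 6 were lower (background 4.57%), with a median log2 fold change of -2.62. Of the 7, Cd40lg, Ifng, Themis and Tnfsf11 averaged under 30 CPM in Foxp3-positive cells and passed the limit through the Foxp3-negative cells alone. Nothing is therefore read from the count or from the tests of those genes. Cd40lg, the ligand through which helper cells license B cells and dendritic cells, had 10.8 and 15.6 CPM in Foxp3-positive cells, against 78.1 and 106 in Foxp3-negative cells. Its log2 fold change was -2.91. Ifng, interferon gamma, had 19.4 and 33.7 CPM, against 118 and 185. Tnfsf8, Themis, Tnfsf11 and Il7r fell as well. Il21, the cytokine of follicular helper cells, lay under the CPM limit with 0 and 1 UMIs in Foxp3-positive cells, against 178 and 86 in Foxp3-negative cells. Il2, also under the limit, had 7 and 14 UMIs, against 101 and 39. Its CPM ratio was 0.554 at 12 weeks (0.217 to 1.18) and 1.77 at 7 weeks (0.890 to 3.34), on different sides of 1. Il17a had no UMI in either set of cells. Bhlhe40 was the tested member that did not pass, and it lay on different sides in the libraries.

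Of 11 resting-cell genes 9 were tested and 7 were lower (background 4.57%), with a median log2 fold change of -1.37. Igfbp4, Dapl1 and Klf2 passed the CPM limit through the Foxp3-negative cells alone, so nothing is read from this count or from their tests either. Igfbp4 had 17.2 and 7.78 CPM in Foxp3-positive cells, against 217 and 134 in Foxp3-negative cells (log2 fold change -3.90). Dapl1 had 2 UMIs at 12 weeks and 0 at 7 weeks in Foxp3-positive cells, which is 4.31 and 0 CPM, against 145 and 60.3 CPM in Foxp3-negative cells. Lef1 and Tcf7, factors of naive and memory T cells, had 81.9 and 54.5 CPM and 77.6 and 62.2 CPM, against 283 and 149 and 210 and 291. Ccr7, the receptor that guides cells into lymph nodes, had 110 and 54.5 CPM, against 186 and 92.3 (log2 fold change -0.87), and did not pass with DESeq2 (adjusted p = 0.247). Il7r and Itgb1 also missed the threshold with DESeq2 (adjusted p = 0.0589 and 0.0638). Itgb8 and Klf2 missed it with edgeR after thinning each cell to 2000 UMIs (adjusted p = 0.0993 and 0.0973). By rank Ptpn11, which encodes the phosphatase SHP-2, and Ehd3 were also among the 8 genes farthest below Foxp3-negative cells, with log2 fold changes of -2.03 and -1.82.

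**Figure D2:**
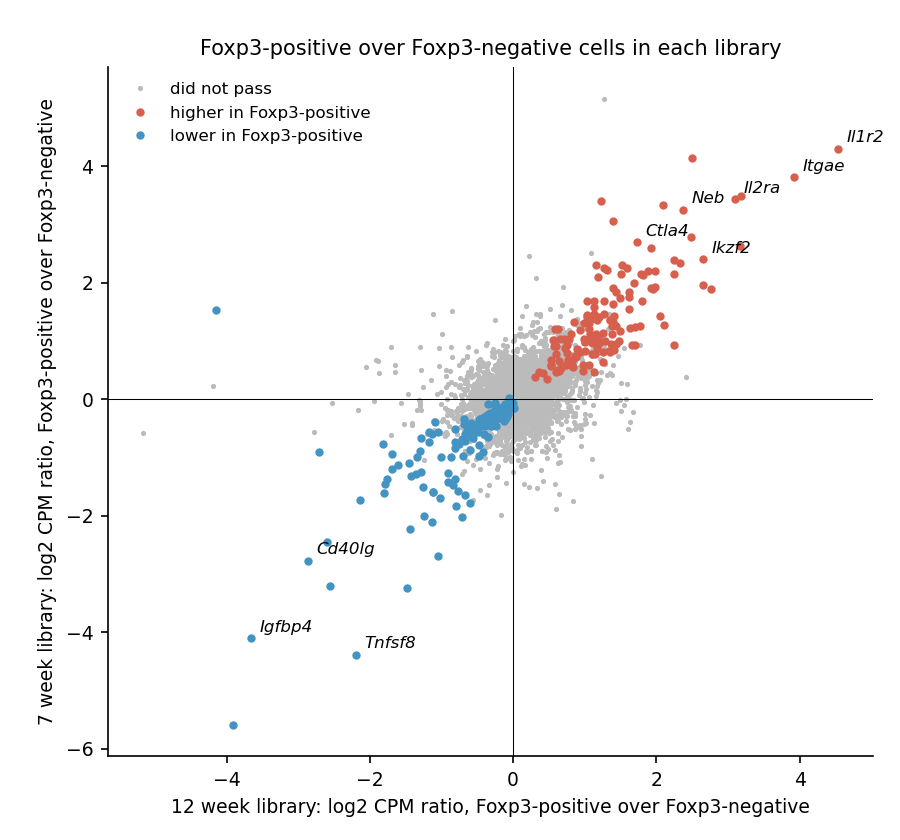
Log2 CPM ratio of Foxp3-positive to Foxp3-negative cells in the 12 week library (horizontal) and the 7 week library (vertical) for 3803 tested genes, 1 point per gene, with 1 tested gene that had 0 UMIs in a sum not drawn. Genes called higher (red) lie in the upper right and genes called lower (blue) mostly in the lower left, and 1 blue point at the upper left is Gcg, whose UMIs in Foxp3-negative cells lay mostly in 1 cell.

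Among 24 transcription factors 18 were tested: Ikzf4, Ikzf2 and Batf rose (background 3.65%), and Foxp1 and Ikzf1 fell (background 4.57%). Foxp1, a forkhead relative of FOXP3 that keeps T cells quiescent, had 94.8 and 96.0 CPM in Foxp3-positive cells, against 174 and 191 in Foxp3-negative cells (log2 fold change -1.04). Of 16 chemokine receptor genes 7 were tested, with Ccr2 higher and Ccr7 lower. Ccr2 had 140 and 213 CPM, against 43.6 and 53.0. Of 13 helper cytokine genes 3 were tested, with Il10 higher and Ifng lower. Of 18 immediate-early and stress genes 17 were tested, and Hspa1a, Hspa1b, Fos, Dnajb1, Ier2 and Jun fell (background 4.57%), with a list median of -0.27.

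RNA of other cell types was present in both sets of cells. The 11 acinar genes summed to 399 and 38.9 CPM in Foxp3-positive cells, against 269 and 25.2 in Foxp3-negative cells, and the 8 endocrine genes to 175 and 31.1 CPM, against 2009 and 40.4. In the Foxp3-negative cells of 12 weeks 91.6% of the endocrine UMIs came from 1 cell, and Gcg, the glucagon gene, which was called lower, had 106 and 18.2 CPM, against 1876 and 6.30. The 6 B cell genes outside the rule summed to 246 and 1906 CPM, against 704 and 1278, with Ly6d at 0 in members of both libraries, Pax5 also at 0 at 12 weeks and Ms4a1 at 7 weeks. The 7 myeloid genes summed to 424 and 897 CPM, against 441 and 644, with Csf1r at 0 in members at 12 weeks. The 5 CD8 and NK genes gave 623 and 1032 CPM, against 572 and 526, the 5 plasmacytoid dendritic cell genes 377 and 254, against 181 and 282, and the 6 genes of type 2 innate lymphoid cells 259 and 363, against 107 and 152. Il5 and Il13 were at 0 in both sets. The 5 erythroid genes gave 21.5 and 25.9 CPM, against 21.5 and 35.7, and the 5 cycle genes outside the rule 190 and 143, against 194 and 165. Of these lists only Gcg, Xcl1 (both lower) and Rora (higher) passed the test.

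In the 7 week library 2 members stood apart: they held 939 UMIs (5.73% of 16389) and 743 UMIs (5.25% of 14156) of Cd74, H2-Aa, H2-Ab1 and H2-Eb1, the MHC class II genes of antigen-presenting cells. The highest share among the other members was 0.227%. They held 5 and 4 Foxp3 UMIs. Among Foxp3-negative cells 7 at 12 weeks and 10 at 7 weeks exceeded 1%. With all cells over 1% left out, an alternative chosen after seeing the data, 156 genes were higher and 190 lower in Foxp3-positive cells, and 306 of the 313 calls were shared. No doublet caller was run, and a pair of cells in 1 droplet and RNA taken up from another cell cannot be told apart here.

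Members differed among themselves in their levels of resting and of effector genes. The 11 resting genes took a median of 3.886 UMIs per 10000 at 12 weeks (range 0 to 32.4) and 3.889 at 7 weeks (0 to 25.2). The effector genes, without Il10 and Ccl5, took a median of 67.7 at 12 weeks (0 to 285) and 69.9 at 7 weeks (1.93 to 247). The cells with the highest resting values had low effector values in both libraries. Other cells were low in both lists, such as a 12 week cell with 1.70 resting and 13.6 effector UMIs per 10000. A 7 week cell had 10.1 and 158. The relation between resting and effector values was not tested.

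**Figure D3:**
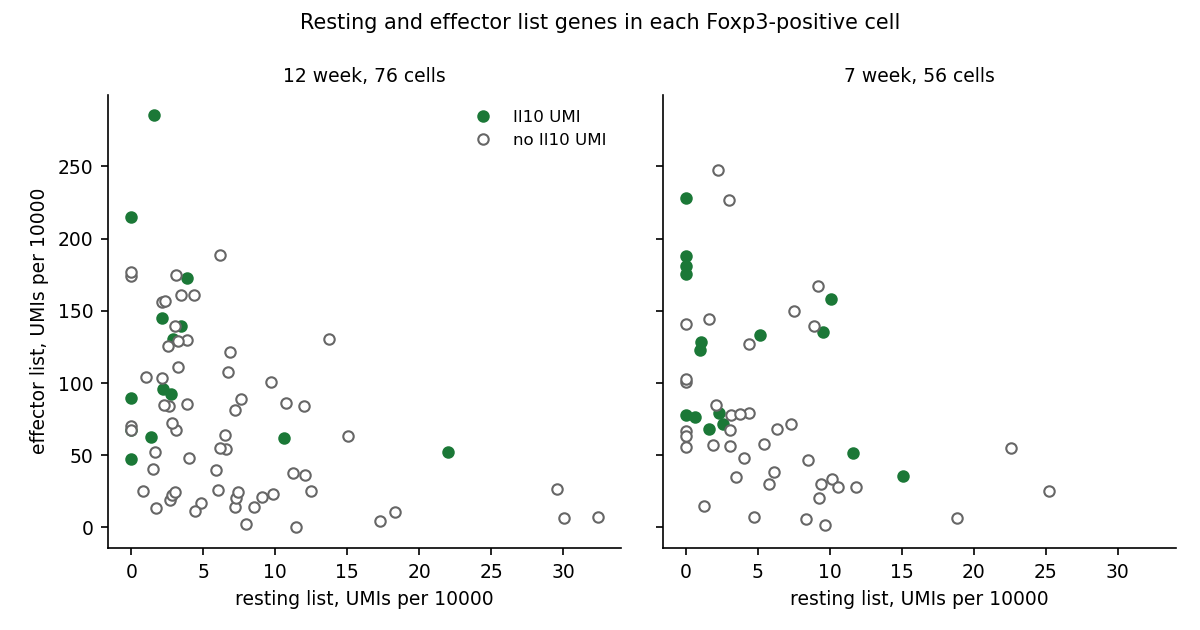
UMIs of the resting list (horizontal) and of the effector list without Il10 and Ccl5 (vertical), each per 10000 UMIs of the cell, in the 76 members at 12 weeks (left) and the 56 at 7 weeks (right), filled where the cell held an Il10 UMI. The cells farthest right, at 32.4 at 12 weeks and 25.2 at 7 weeks, lie near the bottom of the effector scale.

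Il10 (ENSMUSG00000016529, chr1:131019845-131024974, plus strand, GRCm38) marked a minority. At least 1 Il10 UMI was found in 14 of 76 members at 12 weeks (18.4%, 10.5 to 29.0 by the exact binomial method) and 16 of 56 at 7 weeks (28.6%, 17.3 to 42.2). The share was 5.83% and 6.34% in Foxp3-negative cells and 0.610% and 1.74% in B cells, at median depths of 4606.5 and 4968 UMIs. Thinned to 2000 UMIs it was 14.5% and 21.4% in members, against 3.13% and 2.82% in Foxp3-negative cells. Foxp3 stood at 488 CPM in members with Il10 against 333 in those without at 12 weeks, a ratio of 1.46 whose exact interval (0.995 to 2.11) includes 1. At 7 weeks it stood at 298 CPM against 322, a ratio of 0.923 (0.615 to 1.36).

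Members with an Il10 UMI had higher levels of Ctla4, Lag3, Nr4a1, the chemokine gene Ccl4 and Cxcr6, a receptor of tissue-dwelling T cells, than members without in both libraries. Lag3, an inhibitory receptor that binds MHC class II, had 1526 and 1250 CPM in members with Il10, against 383 and 327 in those without (log2 fold change 1.82, SE 0.19). Ctla4 had 1338 and 1532 CPM, against 263 and 354 (log2 fold change 2.08, SE 0.19). Plac8 had 250 and 134 CPM, against 10.4 and 31.9, and Nr4a3 had 150 and 179 CPM, against 20.8 and 3.98. Ltb4r1 (a leukotriene B4 receptor), Cdkn1a (the cell cycle inhibitor p21) and Fosl2 completed the 6 higher genes named by rank. Lower by rank were Id3, Top2b, Pgrmc1, Nrn1, Ms4a4b and Tbc1d4, and Ms4a4b had 188 and 89.3 CPM, against 609 and 295.

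By edgeR's quasi-likelihood test 39 of 3955 genes were higher (0.986%) and 15 lower (0.379%), 54 in all (1.37%). Of the effector list 27 were tested and 8 were higher, among them Itgae, Icos, Maf, Ccr2 and Tnfrsf1b, with a median log2 fold change of 0.55. One of the 7 week members with MHC class II RNA had 12 Il10 UMIs, and Ccl3, Ifitm3, Tmem176b, H2-Aa and H2-Eb1 are among the higher calls. With cells over 1% MHC class II UMIs left out, 2 genes passed edgeR's test, both shared with the 54: Ctla4 (log2 fold change 2.13, adjusted p = 0.0121) and Lag3 (log2 fold change 1.82, adjusted p = 0.0158). Of 52 of the 54 genes that could be tested then, 50 kept their direction, and H2-Aa and H2-Eb1 did not. Ccl4, Cxcr6 and Nr4a1 had log2 fold changes of 1.89, 1.81 and 1.64 without those cells and 1.85, 1.77 and 1.59 with all cells, and missed the threshold (edgeR adjusted p = 0.169, 0.143 and 0.219). The estimated prior degrees of freedom, which set how far the test treats genes as equally variable, were 5.79 then and 46.1 with all cells. DESeq2 called 4 higher and 1 lower. After thinning each cell to 2000 UMIs edgeR's test called 13 higher and 41 lower, with 19 calls shared with the 54. With at least 2 Il10 UMIs as the gate it called 38 higher and 8 lower, with 29 shared. Maf, a factor that drives Il10, had a log2 fold change of 0.80 with all UMIs and -0.18 after thinning to 2000 UMIs.

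Ccl5, the chemokine RANTES (ENSMUSG00000035042, chr11:83525778-83530518, minus strand, GRCm38), was found more widely. At least 1 UMI was present in 51.3% and 60.7% of members, 44.5% and 46.1% of Foxp3-negative cells and 35.4% and 43.5% of B cells, which should lack it. At least 4 UMIs, a limit set after seeing the data, were found in 8 of 76 members at 12 weeks (10.5%) and 11 of 56 at 7 weeks (19.6%). The share at that limit was 9.10% and 7.39% in Foxp3-negative cells and 0.610% and 1.74% in B cells. The highest member held 56 UMIs at 12 weeks and 93 at 7 weeks.

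None of 3917 genes differed between members with and without a Ccl5 UMI (background 0%) in edgeR's quasi-likelihood test, 223 having an unadjusted p under 0.05, and DESeq2 called none either (19 under 0.05). Between members with at least 4 Ccl5 UMIs and the rest 8 of 3941 genes were higher (0.203%) and 3 lower (0.0761%). Ccl4 had 2132 and 2996 CPM in the members with at least 4, against 249 and 225 in the rest (log2 fold change 3.28, SE 0.27, edgeR adjusted p = 1.39e-05). Nkg7, a granule protein of cytotoxic cells, had 2550 and 1997 CPM, against 324 and 587 (log2 fold change 2.22). Il10 had 379 and 781 CPM, against 65.2 and 285 (log2 fold change 1.71, edgeR adjusted p = 0.0427). The 12 week value rests on 1 cell, which held 17 Il10 UMIs, while no other member at that limit held more than 1. With the limit at 1 Ccl5 UMI, an Il10 UMI was held by 20.5% of members with and 16.2% without at 12 weeks. At 7 weeks it was 26.5% and 31.8%. Serpina3g, Ccl3, Ccl1, Klra1 and Klra4 were the other higher genes. Ccl1 had UMIs at 12 weeks alone, and Klra1 and Klra4 nearly all at 7 weeks. Of the UMIs in the 7 week members, a single cell held 86.7% for Ccl3, 55.6% for Klra1 and 54.5% for Klra4. These calls thus rest on few cells. The lower genes were H2-Aa, H2-Ab1 and Hspa1a. H2-Aa had 99.6 and 69.2 CPM in the members with at least 4, against 109 and 1410 in the rest, and H2-Ab1 had 99.6 and 89.0 CPM, against 121 and 1339, so that the gap lay at 7 weeks, where the members rich in MHC class II RNA were found. The rule set no limit on Nkg7 or other cytotoxic genes apart from Cd8a and Cd8b1.

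**Figure D4:**
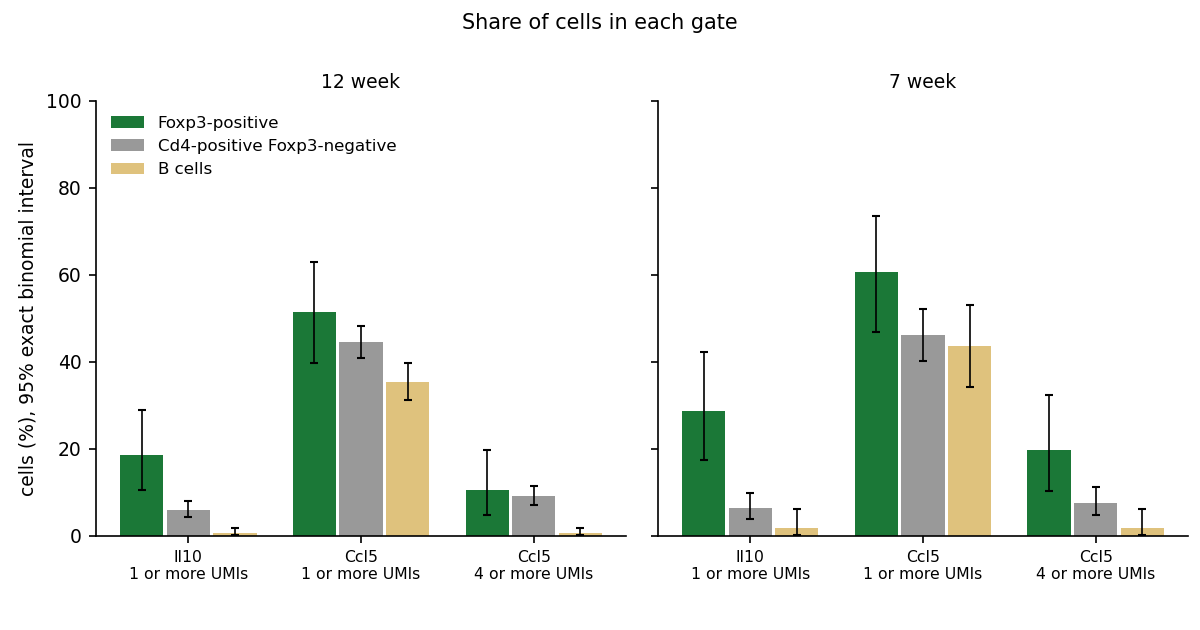
Share of cells with an Il10 UMI, a Ccl5 UMI and at least 4 Ccl5 UMIs among Foxp3-positive (green), Cd4-positive Foxp3-negative (grey) and B cells (tan) of the 12 week (left) and 7 week (right) library, as bars with exact 95% binomial intervals. The share with an Il10 UMI is higher in Foxp3-positive cells than in both other sets in each library, while the share with 1 Ccl5 UMI is 35.4% and 43.5% even in B cells.

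Between the ages most core genes of the members lay close together. Of 18 core genes kept, none differed 2-fold. Ikzf2 had 1235 CPM at 12 weeks and 1141 at 7 weeks, a ratio of 1.08 (exact counting interval 0.954 to 1.23), and Il2ra had 96.97 and 114 CPM, a ratio of 0.850 (0.548 to 1.32). Tnfrsf4 and Tnfrsf18 were higher at 12 weeks, with ratios of 1.29 (1.15 to 1.45) and 1.302 (1.11 to 1.53), and their ratios in Foxp3-negative cells were 1.43 and 1.24. Ctla4 was lower at 12 weeks, with 448 CPM against 765, a ratio of 0.586 (0.488 to 0.702), beside 1.15 in Foxp3-negative cells. At 7 weeks 1 member held 25.8% of the Ctla4 UMIs, and the ratio was 0.689 without the top cell of each library. In all 94 of 3901 genes were at least 2-fold higher at 12 weeks (2.41%) and 161 at least 2-fold lower (4.13%). In Foxp3-negative cells, whose sums held 3712380 and 1906106 UMIs, it was 15 of 3697 (0.406%) and 77 (2.08%).

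The summed levels of Il10 and Ccl5 were lower in members of the 12 week library. Il10 stood at 99.1 CPM (46 UMIs in 14 cells) at 12 weeks, against 415 CPM (160 UMIs in 16 cells) at 7 weeks, with a 12 to 7 week ratio of 0.239 (0.168 to 0.333). In Foxp3-negative cells the ratio was 1.08 (0.811 to 1.43). The cell with most UMIs held 37.0% of the 12 week and 26.9% of the 7 week Il10 UMIs, and without those cells the ratio was 0.202. The ratio of the shares of members with an Il10 UMI was 0.645 with an interval (0.291 to 1.41) that includes 1. The interval of the summed level lay below 1, but it treats the UMIs of 1 cell as independent and is too narrow. It covers neither the spread between cells nor that between mice. Ccl5 had 368 CPM at 12 weeks and 1017 at 7 weeks in members, a ratio of 0.362 (0.301 to 0.435), and 1205 and 547 CPM in Foxp3-negative cells, a ratio of 2.20 (2.06 to 2.36). The top cell held 32.7% and 23.7% of the Ccl5 UMIs of members, and without those cells the ratio was 0.324. Members with at least 2 Ccl5 UMIs were 26.3% and 26.8%, and those with at least 4 were 10.5% and 19.6%. Among Foxp3-negative cells of 12 weeks 1 cell held 588 of the 4473 Ccl5 UMIs.

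The genes highest at 12 weeks by the bound nearest to 1 were Irgm1, Tnfsf8, Nrn1, Ms4a4b, Trappc1, Cd81, Tiam1 and Ifi47. Irgm1, an interferon-inducible GTPase, had 106 CPM (49 UMIs in 33 cells) at 12 weeks, against 20.7 CPM (8 UMIs in 7 cells) at 7 weeks, for a ratio of 5.09 (2.39 to 12.4), beside 0.907 (0.738 to 1.12) in Foxp3-negative cells. Tnfsf8, the CD30 ligand, had 73.3 and 12.97 CPM, a ratio of 5.65 (2.20 to 18.5), and Ifi47, another interferon-inducible GTPase, had 256 and 112 CPM, a ratio of 2.30 (1.61 to 3.34). Of 9 interferon response genes kept, 3 had an interval above 1 (Igtp, Iigp1 and Irgm1) and none below, beside 246 (6.31%) above and 267 (6.84%) below of all 3901 genes kept, with a median log2 ratio of 0.29, against 0.52 over the list in Foxp3-negative cells and 0.0127 over all genes kept.

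The 8 lowest genes by the same rule were H2-Aa, H2-Eb1, Cd74, H2-Ab1, Ccl3, Ctsh, Tyrobp and Klra1. Their values rest on few cells. The level of H2-Aa was 108 CPM at 12 weeks, against 1058 CPM at 7 weeks (ratio 0.102), and without the cells over 1% MHC class II UMIs it had 108 and 92.95 CPM, a ratio of 1.16. The ratios of Cd74, H2-Eb1 and H2-Ab1 became 1.33, 1.16 and 1.05 without those cells. Ccl3 had 1 and 30 UMIs, and 1 cell held 86.7% of those at 7 weeks. Klra1 had 2 and 27 UMIs, and 1 cell held 55.6% of those at 7 weeks.

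Without those cells the 8 lowest were Klra4, Ccl3, Klra1, Ier5, Cd7, Habp4, Il10 and Tmem160. Ier5, an immediate-early gene, had 32.3 CPM at 12 weeks, against 180 CPM at 7 weeks, for a ratio of 0.179 (0.0949 to 0.318), and its ratio in Foxp3-negative cells was 0.176. Tmem160 had 40.9 and 203 CPM, a ratio of 0.202 beside 0.332. Cd7 had 21.5 and 135 CPM, a ratio of 0.159 (0.0719 to 0.319), beside 1.10 (0.825 to 1.49) in Foxp3-negative cells, and 1 cell held 42.1% of all its UMIs in the 7 week members. Of 17 immediate-early and stress genes 11 had an interval below 1 (6.84% of all genes kept) and none above (6.31%), with a median log2 ratio of -0.62, against -0.27 in Foxp3-negative cells. Of 29 effector genes, read against the same shares, 3 had an interval above 1 and 10 below, among them Itgae, Cxcr6, Ccr2, Maf and Prdm1, with a median of -0.25, against 0.04. Of 11 class I genes 6 had an interval above 1 (6.31% of all genes kept) and none below, with a median of 0.15, against 0.19. None of the class I genes differed 2-fold. Genes with many UMIs have narrow intervals: B2m, with 3315 UMIs at 12 weeks and 2491 at 7 weeks, had a ratio of 1.11 (1.05 to 1.17). Acinar RNA moved with age too: 399 CPM at 12 weeks and 38.9 at 7 weeks in members, 269 and 25.2 in Foxp3-negative cells, and its part in these differences was not tested.

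**Figure D5:**
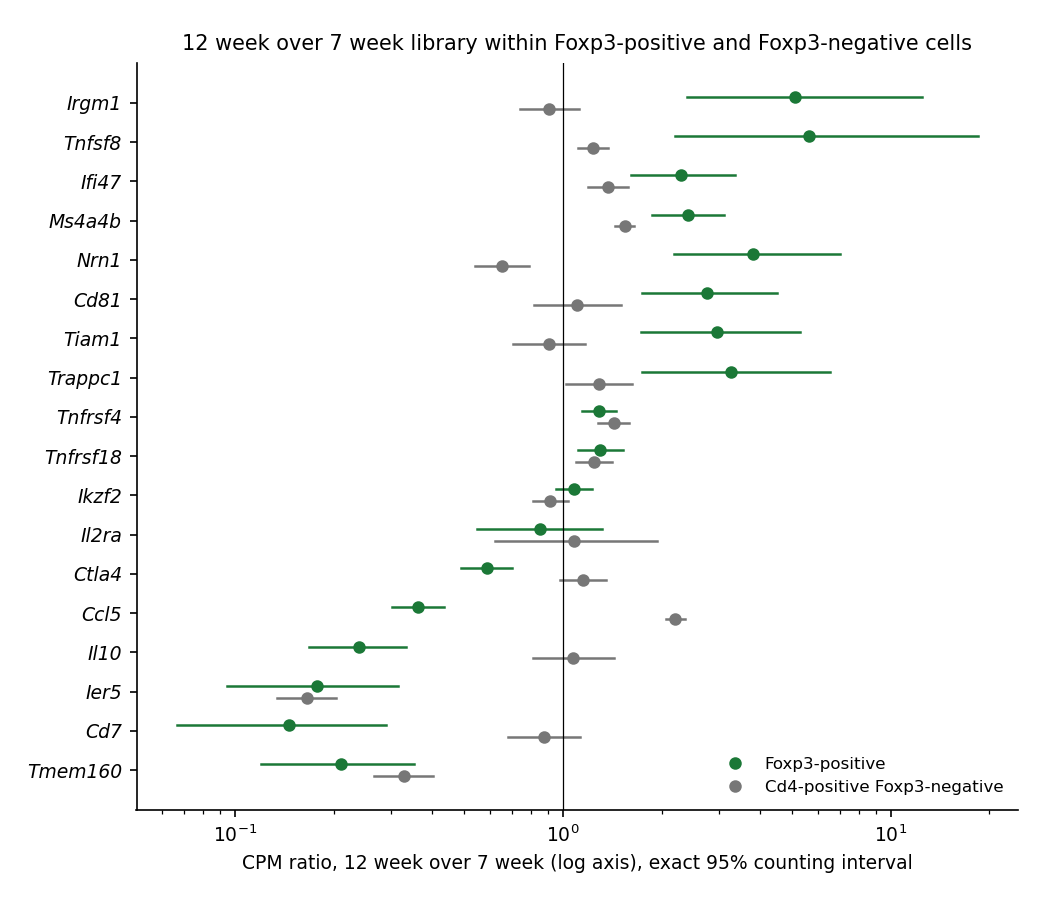
CPM ratio of the 12 week to the 7 week library on a log axis, with exact 95% counting intervals, for 18 genes in Foxp3-positive cells (green) and Cd4-positive Foxp3-negative cells (grey), 1 sum of cells per library. The intervals of Il10, Ccl5, Ctla4 and Cd7 lie wholly left of 1 in Foxp3-positive cells and not in Foxp3-negative cells, and those of Ier5 and Tmem160 lie left of 1 in both.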

How the data were processed

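CD45.1+ cells of the pancreas were sequenced in 1 library per age (12 and 7 weeks). The deposited values are raw UMI counts per gene and barcode over 27998 genes, made by the authors with Cell Ranger 1.3.1 on mm10, per the submitters' processing notes. The sources used here do not name the annotation version. The members, gene lists, gates and tests were chosen with earlier results of these data known.

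Counts were summed per library and cell set. The 4 sums of a comparison were fitted with edgeR 4.0.16 (R 4.3.3; quasi-likelihood, TMM factors, Benjamini-Hochberg adjustment, library as a block, 1 residual degree of freedom) over genes with a mean of at least 30 CPM across the sums, without the genes that chose the cells. The standard errors (SE) are those implied by the test statistic. Counts were simulated for 3641 genes of the Foxp3-positive against Foxp3-negative comparison. The test called 100% of 4-fold and 64.0% of 2-fold increases, 54.5% of 2-fold decreases and 0.0863% of unchanged genes. The simulation used a fixed dispersion and the same gene profile in both libraries. These rates therefore do not cover genes whose difference changes between the libraries. Between ages there is no test: a CPM ratio carries an exact conditional 95% interval, and a 2-fold difference is counted. Shares carry Clopper-Pearson intervals. UMIs of 1 cell are not independent of each other, so intervals are too narrow.

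Named genes were the core list, Il10, Ccl5 and Ccr7, genes of the other lists that passed or lay at the ends of their list, and by rank those with the largest log2 CPM ratio in the library where it was smaller (12 higher and 8 lower; 6 and 6 for the gates). For ages the rank was by the interval bound nearest to 1 (8 and 8). A planned gate, an alternative Foxp3-negative set and some list genes are not reported here. No doublet caller was run; the limits on Cd79a, Lyz2 and Cd8 UMIs stand in its place. Alternatives were DESeq2 1.42.0, other scalings, filters and cell limits, thinning to 2000 UMIs, and, chosen after seeing the data, 4 or more Ccl5 UMIs, a narrower Foxp3-negative set and leaving out cells with over 1% MHC class II UMIs. Python 3.11.15, numpy 2.4.6, scipy 1.17.1, pandas 2.3.3 and matplotlib 3.10.9 were used. Gene positions are from GENCODE on GRCm38, and promoter sequences from RefSeq on GRCm38.p6.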

Additional observations from a re-analysis of the deposited data

Results flagged for a closer look

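Among 193 list and named genes, the CPM ratio of Foxp3-positive to Foxp3-negative cells had an exact interval wholly above 1 in one library and wholly below 1 in the other for 4. The ratio itself lay on different sides of 1 for 44 of the 193, and over all 3804 genes tested for 1328, of which 16 had intervals on different sides. The difference between the libraries was not tested. Ccl5 had a ratio of 0.306 at 12 weeks and 1.86 at 7 weeks, and 1 cell held 588 of its 4473 UMIs in Foxp3-negative cells at 12 weeks. Irgm1, the interferon-inducible GTPase, had a ratio of 1.52 at 12 weeks and 0.271 at 7 weeks. Bhlhe40, a transcription factor of activated helper cells, had a ratio of 1.58 at 12 weeks and 0.476 at 7 weeks. Penk, the proenkephalin gene, had a ratio of 0.503 at 12 weeks and 2.18 at 7 weeks, and 1 cell held 81.8% of its UMIs in members at 12 weeks and 63.2% at 7 weeks.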

How the results depend on the processing

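With 1 library per age, leaving out a library leaves no comparison. The p-values rest on how far the difference between cell sets varies between these libraries, pooled in large part over genes. The prior degrees of freedom were 5.85 for Foxp3-positive over Foxp3-negative cells and 46.1 for the Il10 gate, beside 1 residual degree of freedom. A gene can thus pass although its own difference varies between the libraries, and the spread between mice is not measured. Genes higher and lower in Foxp3-positive cells than in Foxp3-negative cells numbered 68 and 98 with DESeq2, 318 and 342 without the CPM filter, 40 and 15 with no replicate block (no library term), and 275 and 276 with Cd4 UMIs required of members. The number higher was 232 without scaling factors, 212 with at least 2 Foxp3 UMIs, and 213 without cells of high UMI total or with a Cd79a or Lyz2 UMI. For the Il10 gate DESeq2 called 5, the fit with no library term 7, and the fit without cells over 1% MHC class II UMIs 2. Thinning called 13 higher and 41 lower for that gate, against 39 and 15 in the main fit. Maf had a log2 fold change of -0.18 after thinning. For the Ccl5 gate median-of-ratios factors called 2, thinning 1, at least 2 UMIs 4 and at least 4 UMIs 11.

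Between the ages, genes at least 2-fold higher and lower at 12 weeks numbered 465 and 602 at a mean of at least 10 CPM, 318 and 464 after thinning, and 151 and 247 without cells of high UMI total or with a Cd79a or Lyz2 UMI, and 230 were higher with at least 2 Foxp3 UMIs. Without the high-UMI, Cd79a or Lyz2 cells the ratios of Cd74, H2-Aa, H2-Ab1 and H2-Eb1 were 1.04, 1.15, 1.24 and 1.09, and without the cells over 1% MHC class II UMIs 1.33, 1.16, 1.05 and 1.16. The cause of the other changes was not tested. Over the tested named genes 614 values kept their direction and side of the threshold under an alternative and 127 kept their direction without passing.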
